A study of Mus musculus with 6 samples.

Results

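Carbonic anhydrases and classic hypoxia marker genes were followed through hypoxia and reoxygenation of AML12 cells, an established line of mouse hepatocytes. The 9 genes were Car2, Car9, Car12, Car13, Ndrg1, Ankrd37, Stc1, Slc4a7 and Rora. They were found by their symbols among the 25330 genes of each library's table, and all 9 were present. The 3 Control libraries came from wild-type cells kept at 21% oxygen and 5% carbon dioxide. The 3 H6R2 libraries came from wild-type cells held for 6 hours in medium without serum and glucose at 1% oxygen and 5% carbon dioxide, followed by 2 hours of reoxygenation (H/R). Both groups had been grown in DMEM/F12 with 10% fetal bovine serum, an insulin-transferrin-selenium supplement and 40 ng/ml dexamethasone. Oxygen, serum and glucose were changed together, so their parts in any difference cannot be told apart. The 6 libraries were not stated to come from separate cultures, so the p-values measure only the spread between these libraries. In bulk RNA, fewer cells of a type and less RNA per cell cannot be told apart.

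When oxygen is low, the hydroxylases that mark hypoxia-inducible factor (HIF) alpha subunits for breakdown lose activity, and HIF then binds short RCGTG motifs (R is A or G) in regulatory DNA and raises transcription of its targets. Carbonic anhydrases convert carbon dioxide and water to bicarbonate and a proton, and bicarbonate transporters such as Slc4a7 carry the product across the membrane. Car9 is the family member best known as a HIF target in tumors, while Ndrg1, Ankrd37 and Stc1 are general markers of the hypoxic response.

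The libraries held 20438746 to 21854790 assigned counts. Scaled counts are counts divided by the library's TMM-adjusted size and multiplied by the mean of those sizes, and RPKM are the deposited values per kilobase of exon and per library size. Control replicate 1 stood apart: 59 genes had at least 10 counts there and at most 2 in every other library, against 0 to 2 such genes for the others. Among them was the hepatocyte gene Serpina1a, with 61 counts there and at most 1 elsewhere. Results for the 9 genes are therefore also given without that library. Among 10 hepatocyte markers, 9 were tested. At an adjusted p of 0.05, 7 fell, and the keratins Krt8 and Krt18 rose. Of all tested genes, 31.8% were lower and 31.0% higher at that adjusted p. Of the 7, 5 remained past the adjusted p without Control replicate 1, and 4 to 6 did with any library left out. The summed scaled count of this list was 84988 to 90110 in Control and 133459 to 135337 in H6R2, almost all of it from Krt8 and Krt18. Without these keratins the sum was 4219 to 5053 in Control and 2721 to 2830 in H6R2. The summed scaled count of the cholangiocyte markers Krt7, Krt19 and Sox9 was 27096 to 29826 and 53767 to 55986. The 4 macrophage and leukocyte markers summed to 60.3 to 71.2 in Control and 188 to 216 in H6R2. Csf1r had 42 to 79 counts and rose by 0.63 on the log2 scale, Cd68 had 16 to 22 counts in Control and 113 to 137 in H6R2, and Adgre1 and Ptprc had at most 3 counts in any library. Csf1r shares 871 exonic bases (17.8%) with another gene, and reads in them cannot be told apart here. Endothelial markers summed to at most 8.52. The part of these shifts in the values below was not tested.

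Of the 9 genes, 2 rose past the threshold of 2-fold and an adjusted p of 0.05 (quasi-likelihood test of edgeR, p-values adjusted by Benjamini-Hochberg over 14020 tested genes): Ndrg1 and Ankrd37. For comparison, 4.25% of all tested genes were called higher and 4.27% lower. Car13 passed the adjusted p but changed less than 2-fold. That made 3 of the 6 tested genes past the adjusted p alone, where 62.8% of all tested genes were. The same 3 genes had groups that did not overlap, and 65.9% of all tested genes also had groups that did not overlap. Car2, Car9 and Slc4a7 did not pass the test. Car12, Stc1 and Rora had too few counts to be tested, and Stc1 and Rora had 3 counts or fewer in every library. The median log2 fold change of the 6 tested genes was 0.24, and that of all tested genes was -0.01. Without Control replicate 1, the number called was again 2. The log2 fold changes were then 3.26 for Ndrg1, 2.67 for Ankrd37, 0.50 for Car13, -0.33 for Car2, -0.15 for Car9 and -0.02 for Slc4a7.

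**Figure D1:**
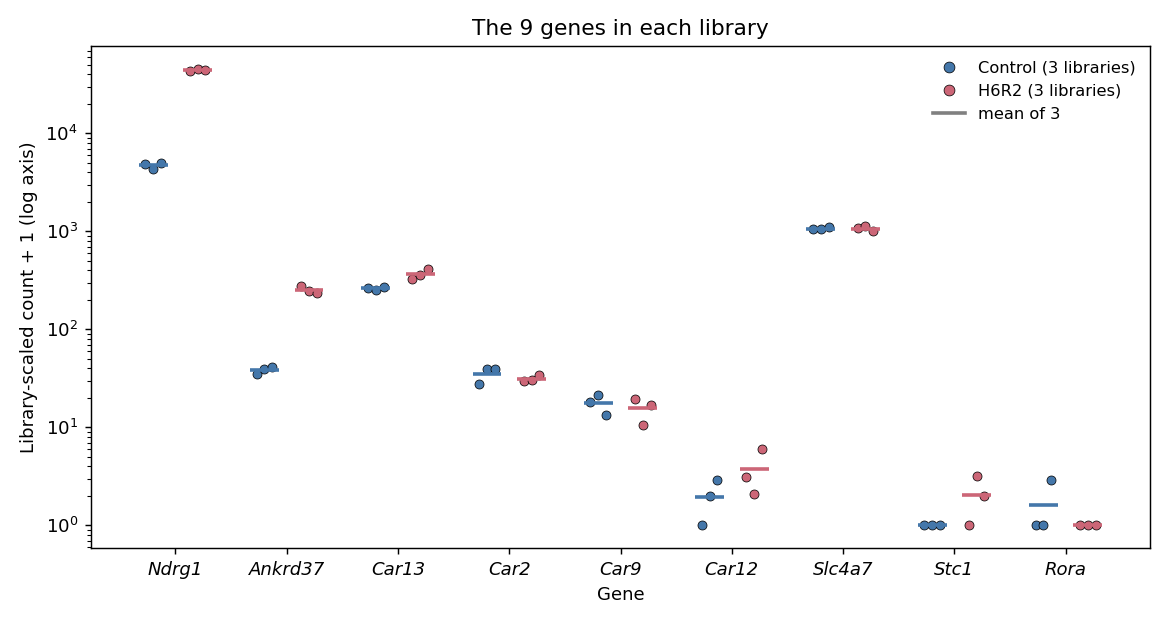
Scaled counts plus 1 of the 9 genes in each library, on a log axis, with 1 point per library and a bar at the group mean. The H6R2 points of Ndrg1, Ankrd37 and Car13 all lie above their Control points, and those of Slc4a7 and Car9 overlap.

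Ndrg1, a cytosolic protein of the N-myc downstream-regulated family that is induced by hypoxia and metal chelation in many cell types, lies on chr15:66929321-66969640 (GRCm38, minus strand). It had 5149, 4406 and 5340 counts in the Control libraries and 40377, 42369 and 44563 in the H6R2 libraries. Every H6R2 library was far above every Control library, and after scaling the lowest H6R2 value was 8.65 times the highest Control value. The scaled count rose from 4733 ± 385 to 44571 ± 1104 (SD, n = 3 each), a log2 fold change of 3.24 (SE 0.0549). This was a 9.42-fold rise (95% CI 8.71 to 10.2), with an adjusted p of 8.33e-31 by edgeR's quasi-likelihood test. Per length, Ndrg1 moved from RPKM ranks of 1628 to 1909 in the Control libraries to ranks of 177 to 192 in the H6R2 libraries, where rank 1 is the highest of all genes. Its counts made up 0.0210% to 0.0250% of the assigned counts in Control and 0.197% to 0.207% in H6R2. It ranked 28 among all tested genes by log2 fold change.

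Ndrg1 shares 556 exonic bases (8.43% of its exon length) with Gm17035 and Gm2895 on the opposite strand. All 419 bases of Gm17035 lie inside Ndrg1 exons. Gm17035 had 531, 433 and 564 counts in Control and 4212, 4458 and 4836 in H6R2. Gm2895 had 50, 34 and 43 counts, then 296, 284 and 365. Both partners rose beside Ndrg1. The libraries were made with a stranded kit, but whether counting used strand was not stated, so reads of these overlapping genes cannot be told apart. The counts of both partners were lower than those of Ndrg1 in every library. Per length, Gm2895 was also lower, but Gm17035 was higher than Ndrg1 in every library. Gm17035 had 49.1 to 63.1 RPKM in Control and 490 to 531 in H6R2, against 31.8 to 38.0 and 298 to 314 for Ndrg1.

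Ankrd37, a small ankyrin repeat protein and a direct HIF target, lies on chr8:45996902-46005707 (minus strand). It had 36, 39 and 43 counts in Control and 255, 228 and 234 in H6R2. The groups were again far apart, with the lowest scaled H6R2 value 5.78 times the highest Control value. The scaled count rose from 37.5 ± 3.23 to 251 ± 21.0, a log2 fold change of 2.74 (SE 0.138). The fold was 6.68 (95% CI 5.50 to 8.11), with an adjusted p of 1.85e-18 by edgeR's quasi-likelihood test. Ankrd37 shares 406 exonic bases (26.4%) with Lrp2bp and Ufsp2 on the opposite strand. Lrp2bp had 2, 6 and 7 counts and then 37, 26 and 33, so it rose from a low level. Ufsp2, which encodes a UFM1 protease, had 654, 590 and 677 counts and then 864, 762 and 856, a log2 fold change of 0.51. Reads within the shared bases cannot be told apart here without the strand setting of the counting.

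**Figure D2:**
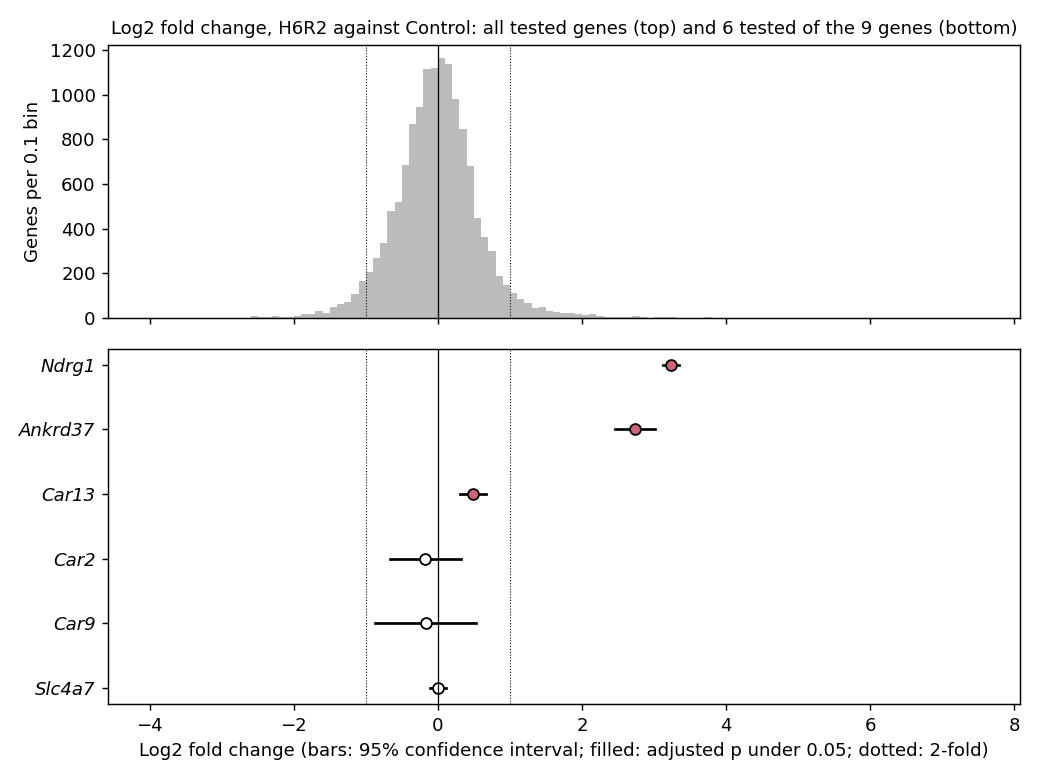
Histogram of log2 fold changes (H6R2 minus Control) of all 14020 tested genes above, and the 6 tested of the 9 genes below, with 95% confidence intervals as bars. Ndrg1 at 3.24 and Ankrd37 at 2.74 lie in the far right tail, and the intervals of Car2, Car9 and Slc4a7 span 0.

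RCGTG was searched as ACGTG and GCGTG on both strands (reverse complements CACGT and CACGC) in RefSeq promoters of GRCm38.p6, which run from 250 bases before to 50 bases after the gene's start. Among the 32851 promoters, 19.6% held ACGTG, 32.4% held GCGTG and 43.8% held either. The gene spans given here come from the exon coordinates deposited with the counts, and the promoter windows of Ankrd37 and Slc4a7 lie inside them. Promoters were matched for 5 of the 9 genes, Car9, Car12, Ankrd37, Slc4a7 and Rora. ACGTG was present in 3 of them (Car9, Ankrd37 and Rora), and neither motif was present in those of Car12 and Slc4a7. A match is a description of the letters and not a bound site. The promoters of Ankrd37, which rose, and of Car9, whose groups overlapped, are printed to show that both hold the motif. The third is that of Car6, the carbonic anhydrase with the largest fold change below. Each reads 5′ to 3′ on the gene's strand, and capitals mark the motifs on either strand.
Ankrd37 promoter (chr8:45999801-46000100, minus strand): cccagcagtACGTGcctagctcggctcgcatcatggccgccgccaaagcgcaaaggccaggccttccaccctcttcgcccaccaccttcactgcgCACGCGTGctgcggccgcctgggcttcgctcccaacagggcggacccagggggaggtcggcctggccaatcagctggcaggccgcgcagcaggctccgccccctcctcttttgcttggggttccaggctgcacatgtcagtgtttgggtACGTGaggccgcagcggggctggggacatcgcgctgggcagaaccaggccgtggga
Car9 promoter (chr4:43506776-43507075, plus strand): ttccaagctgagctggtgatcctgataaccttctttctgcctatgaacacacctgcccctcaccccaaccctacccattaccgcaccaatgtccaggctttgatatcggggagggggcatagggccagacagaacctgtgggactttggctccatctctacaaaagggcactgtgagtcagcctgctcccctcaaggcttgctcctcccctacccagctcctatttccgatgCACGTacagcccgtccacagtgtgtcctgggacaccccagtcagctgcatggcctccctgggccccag
Car6 promoter (chr4:150201086-150201385, minus strand): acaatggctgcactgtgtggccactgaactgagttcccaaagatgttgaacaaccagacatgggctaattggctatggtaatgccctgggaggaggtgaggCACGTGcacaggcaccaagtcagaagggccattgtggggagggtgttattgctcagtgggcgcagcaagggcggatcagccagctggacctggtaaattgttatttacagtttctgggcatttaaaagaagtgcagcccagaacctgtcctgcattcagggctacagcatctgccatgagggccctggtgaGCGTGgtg

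In the Ankrd37 promoter, counting from the start (upstream bases are negative), ACGTG began at -241 and -6, and an overlapping pair of GCGTG matches on opposite strands began at -155 and -152. The Car9 promoter held a single ACGTG, on the reverse strand, at -18. The Car6 promoter held the palindrome CACGTG, which reads as ACGTG on both strands, at -149. It also held a GCGTG on the gene's strand at 43, after the start. Among the promoters of the other hypoxia markers described below, 36 of 43 (83.7%) held either motif, and among those of carbonic anhydrase genes 10 of 15 (66.7%) did.

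The carbonic anhydrases did not move as a group. Car13, a cytosolic isozyme on chr3:14641727-14663002 (plus strand), had 280, 257 and 284 counts in Control and 301, 335 and 409 in H6R2. Its groups did not overlap after scaling, but the margin was small, with the lowest H6R2 value 1.21 times the highest Control value. The scaled count rose from 261 ± 9.07 to 365 ± 42.4, a 1.40-fold change (95% CI 1.23 to 1.59). The log2 fold change was 0.48 (SE 0.0896), with an adjusted p of 1.70e-05 by edgeR's quasi-likelihood test. An exact two-sided permutation test on the scaled counts gave p = 0.1 for Car13, Ndrg1 and Ankrd37, the smallest p that 3 against 3 libraries allow.

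Car2, the widely expressed fast cytosolic isozyme and a neighbour of Car13 on chr3:14886273-14900770 (plus strand), had 28, 39 and 41 counts in Control and 27, 27 and 33 in H6R2. The groups overlapped. The scaled counts were 34.4 ± 6.82 and 30.4 ± 2.24, a log2 fold change of -0.17 (95% CI -0.67 to 0.32) with an adjusted p of 0.551 by edgeR's quasi-likelihood test. The interval covers folds from 0.629 to 1.25. Car2 is also abundant in red cells, and the erythroid markers summed to 5.85 to 16.1 scaled counts in Control and 4.31 to 17.0 in H6R2.

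Car9, the membrane isozyme with an extracellular catalytic domain, lies on chr4:43506966-43513729 (plus strand). It had 18, 21 and 13 counts in Control and 17, 9 and 16 in H6R2, and the groups overlapped. The log2 fold change was -0.17 (95% CI -0.87 to 0.53), with an adjusted p of 0.686 by edgeR's quasi-likelihood test. The interval covers folds from 0.549 to 1.44, and the folds of Ndrg1 and Ankrd37 lay outside it. Car9 shares 214 exonic bases (9.29%) with Gm12454 on the opposite strand, which had 37, 32 and 33 counts in Control and 19, 17 and 21 in H6R2. That partner fell (log2 fold change -0.70, adjusted p 0.0207 by edgeR's quasi-likelihood test, 0.0651 without Control replicate 1 and 0.0615 without H6R2 replicate 2), and reads in the shared bases cannot be told apart.

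Car12, another membrane isozyme known from hypoxic tumors, lies on chr9:66713686-66766845 (plus strand). It had 0, 1 and 2 counts in Control and 2, 1 and 5 in H6R2. The summed counts of 3 and 8 gave a ratio of 2.93 after adjusting for library size, with a counting interval of 0.704 to 17.2. That interval includes 1 and covers counting error only, since reads amplified by PCR are not independent molecules.

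The family list had 16 genes, of which 10 were analysed here and 6 were tested. At an adjusted p of 0.05, 2 were higher (Car6 and Car13), 1 was lower (Car5b), and Car6 alone was also past 2-fold. Of all tested genes, 62.8% passed that adjusted p and 8.52% were also past 2-fold. The median log2 fold change of the 6 tested genes was -0.15. Car6, the secreted isozyme known from saliva, lies on chr4:150187015-150201332 (minus strand) and shares no exonic base with another gene. It had 3, 1 and 2 counts in Control and 58, 39 and 50 in H6R2. The gene was near the floor in every Control library and detected in every H6R2 library. The summed counts of 6 and 147 gave a ratio of 27.0 (counting interval 12.1 to 74.7), with an adjusted p of 2.77e-12 by edgeR's quasi-likelihood test. Car6 passed the count filter only through its H6R2 libraries, and with a filter of at least 10 counts in every library it was not tested and 0 carbonic anhydrases were called. Car5b, a mitochondrial isozyme, had 142, 124 and 139 counts and then 110, 89 and 86. It fell by 0.37 on the log2 scale, with an adjusted p of 0.0198 by edgeR's quasi-likelihood test. By the same edgeR test the adjusted p was 0.0635 without Control replicate 1, 0.0628 without H6R2 replicate 2 and 0.131 without H6R2 replicate 3.

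Car14 did not pass the test, with 46, 34 and 53 counts in Control and 39, 31 and 41 in H6R2. Car15 had 4, 4 and 3 counts and then 10, 3 and 16, and its groups overlapped because H6R2 replicate 2 was at the Control level. It was below the count filter, and passed the threshold when no filter was used. Car15 shares 1052 exonic bases (82.0%) with another gene and Car14 shares 445 (17.5%). Reads in these shared bases cannot be told apart here. Car3 had 7, 0 and 3 counts and then 0, 0 and 2, with the highest value in Control replicate 1. Per length, the summed RPKM of the family was 8.75 ± 0.429 in Control and 11.2 ± 1.07 in H6R2. Car13 made up most of it in both groups, at 63.6 ± 0.387% and 64.3 ± 5.30%. The share of Car6 was 0.581% in Control and 11.5% in H6R2.

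**Figure D3:**
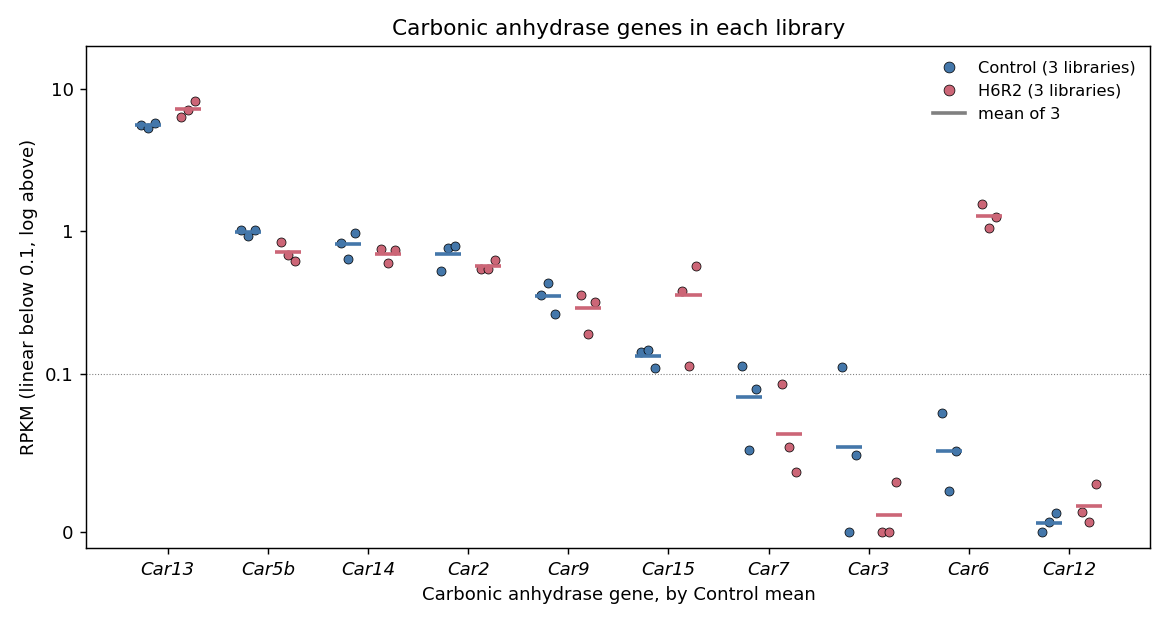
RPKM of the carbonic anhydrase genes in each library, with 1 point per library and a bar at the group mean. Car13 is the highest member in both groups, and Car6 moves from 0.0511 to 1.29 RPKM while the points of Car2 and Car9 overlap between groups.

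Slc4a7, an electroneutral sodium bicarbonate cotransporter, lies on chr14:14703025-14799943 (plus strand). It had 1105, 1083 and 1171 counts in Control and 998, 1047 and 1002 in H6R2. The raw counts were lower in every H6R2 library, but the scaled counts overlapped, at 1068 ± 29.9 and 1068 ± 64.2. The log2 fold change was -0.00 (95% CI -0.11 to 0.11), with an adjusted p of 0.993 by edgeR's quasi-likelihood test. Of the 9 genes it had the narrowest interval, covering folds from 0.925 to 1.08.

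Among 25 acid-base transport genes, 22 were analysed here and 17 were tested, with 2 higher, 7 lower and 8 not past an adjusted p of 0.05. The 9 that passed were a smaller share than the 62.8% of all tested genes that did. Past 2-fold as well, as were 8.52% of all tested genes, Slc4a4 and Bsg rose and Slc26a6 fell. Slc4a4, the electrogenic sodium bicarbonate cotransporter, rose from 962 to 2032 scaled counts (log2 fold change 1.08, adjusted p 3.71e-19 by edgeR's quasi-likelihood test). Bsg, basigin, which escorts lactate transporters to the membrane, rose from 9199 to 18975 (log2 fold change 1.04, adjusted p 6.98e-20 by edgeR's quasi-likelihood test). Both lie just above the fold threshold, and with library totals alone as the scaling their log2 fold changes were 0.98 and 0.94. That of Bsg was 0.97 with upper quartile scaling and 0.996 without Control replicate 2. Slc26a6, an anion exchanger, fell by 1.12 on the log2 scale, from 61.6 to 28.4 scaled counts, and by 0.94 without H6R2 replicate 2. The sodium-proton exchanger Slc9a5 fell by 0.76, the scaffold protein Slc9a3r1 by 0.66, and Slc4a11 by 0.37. The median log2 fold change of the 17 tested genes was -0.22.

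Stc1, a secreted glycoprotein hormone induced by hypoxia in several tissues, lies on chr14:69029289-69041401 (plus strand). It had 0 counts in each Control library and 0, 2 and 1 in H6R2. Over the summed 64200065 Control counts, a count of 0 allows up to 0.0467 CPM (counts scaled to library size). Rora, a retinoid-related orphan receptor and activator of clock genes, lies on chr9:68653786-69388246 (plus strand). It had 0, 0 and 2 counts in Control and 0 in each H6R2 library, which allows up to 0.0478 CPM there. Neither gene was measurable at this depth in either group, and no fold is given.

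Among 16 paralogs of these genes, 14 were analysed here and 8 were tested. At an adjusted p of 0.05, 2 were higher and 3 lower, a share close to the 62.8% of all tested genes. This list is not separate from those above, since its carbonic anhydrase and Slc4 genes, among them Car5b and Slc4a4, were already counted there. Ndrg2 had 15, 7 and 12 counts in Control and 40, 29 and 32 in H6R2, and rose from 10.8 to 35.4 scaled counts. Its log2 fold change was 1.70 (adjusted p 1.24e-05 by edgeR's quasi-likelihood test), in the direction of Ndrg1 at a far lower count. Ndrg2 passed the count filter only with its H6R2 libraries. With a filter of at least 10 counts in every library it was not tested. Ndrg3 had a log2 fold change of -0.07 and did not pass the test. Stc2 was also low, with 2, 0 and 3 counts and then 1, 1 and 3. Rorb, a relative of Rora, fell from 91.9 to 51.8 scaled counts (log2 fold change -0.82, adjusted p 1.08e-04 by edgeR's quasi-likelihood test). Of 7 clock genes linked to ROR receptors, 6 were tested, and 4 were higher and 0 lower at an adjusted p of 0.05, where 31.0% of all tested genes were higher. Their median log2 fold change was 0.81. Cry1, a repressor of the clock, rose by 1.44 on the log2 scale, Nfil3 by 1.23, Nr1d2 by 0.83 and Arntl by 0.78. Clock and Nr1d1 did not pass, at 0.09 and -0.15.

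The other hypoxia markers give the setting for Ndrg1 and Ankrd37. Of 35 listed genes, 33 were analysed here and 32 were tested. At an adjusted p of 0.05, 28 were higher and 2 lower, and with the 2-fold threshold 21 rose and 1 fell. Of all tested genes, 31.0% were higher and 31.8% lower at that adjusted p. With the 2-fold threshold, 4.25% of all tested genes rose and 4.27% fell. The median log2 fold change of the 32 markers was 1.46, against -0.01 for all tested genes. Without Control replicate 1 the counts were again 21 and 1, with a median of 1.44.

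Adm, the vasodilator peptide adrenomedullin, rose most, from 13.4 to 185 scaled counts (log2 fold change 3.78). Ero1l, an oxidase of the endoplasmic reticulum, rose by 3.13 on the log2 scale, and Bnip3, a mitophagy receptor, by 3.05. Bnip3 shares 504 exonic bases (22.3%) with another gene, and reads in them cannot be told apart here. Slc2a1, the glucose transporter GLUT1, rose from 788 to 6357 scaled counts (3.01). The collagen-modifying enzymes P4ha1 and Plod2 rose by 2.41 and 2.06. All of these passed the adjusted p and fold thresholds. Tfrc, the transferrin receptor, fell by 1.71 on the log2 scale. Pfkfb4, a regulator of glycolysis, fell by 0.85, short of the fold threshold. Ddit4 and Angptl4 did not pass the test, at 0.04 and 0.07. Only 1 of the 32 markers, Adm, had a larger log2 fold change than Ndrg1, and 4 had a larger one than Ankrd37. Car13 lay below 27 of them, and Car9 lay above 2 of them.

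**Figure D4:**
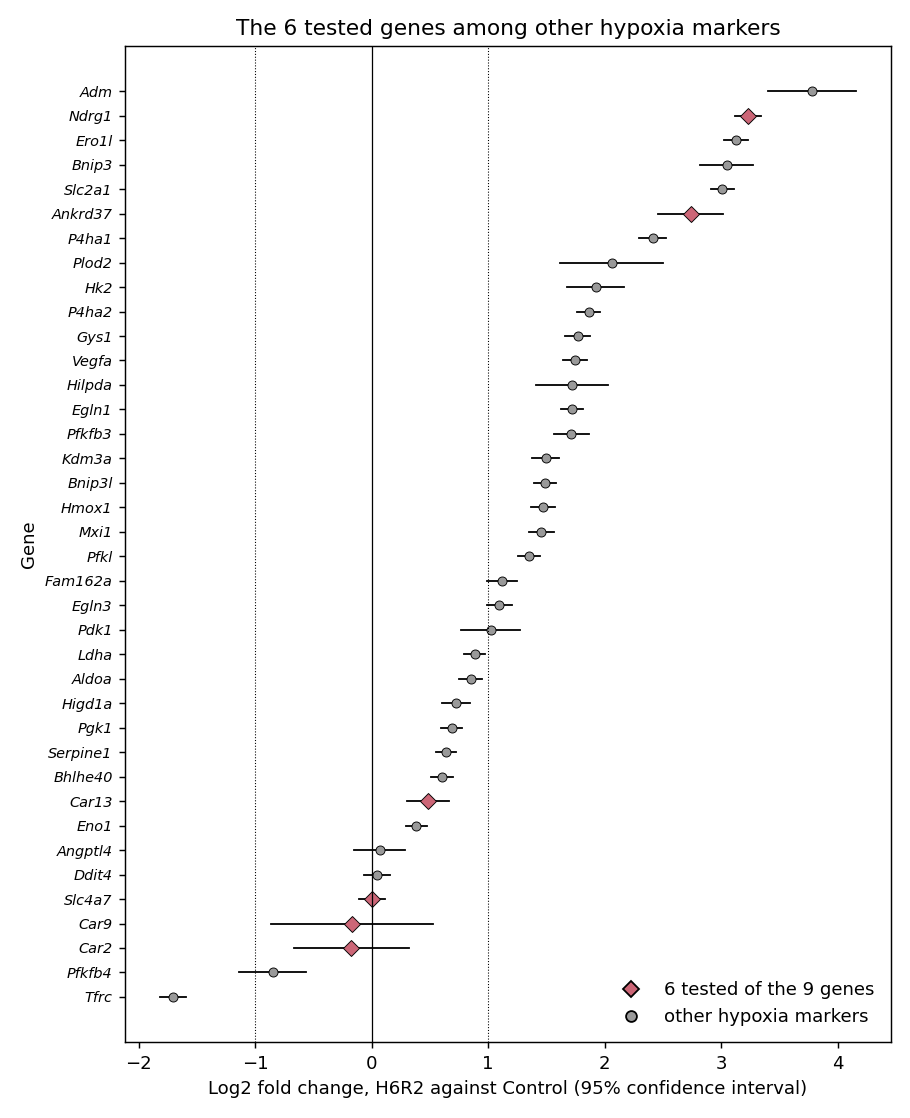
Log2 fold change (H6R2 minus Control) with 95% confidence intervals for the 32 tested hypoxia markers and the 6 tested genes. Ndrg1 and Ankrd37 lie among the markers with the largest rises, whereas Car2, Car9 and Slc4a7 lie near 0.

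Per length, the order of mean RPKM in Control was Ndrg1 (35.2 ± 3.14), Slc4a7 (7.08 ± 0.311), Car13 (5.56 ± 0.239), Ankrd37 (1.20 ± 0.120), Car2 (0.696 ± 0.146) and Car9 (0.352 ± 0.0845). Neighbours in this order did not overlap between libraries. In H6R2, Ndrg1 stood at 308 ± 8.43 RPKM and Ankrd37 at 7.44 ± 0.564. Ankrd37, Car13 (7.23 ± 0.906) and Slc4a7 (6.58 ± 0.348) then stood close together. The libraries of Car13 overlapped with those of both others, while those of Ankrd37 were all above those of Slc4a7. Car2 (0.572 ± 0.0476) and Car9 (0.290 ± 0.0879) were again the lowest of the tested genes. The means of Car12, Stc1 and Rora were at most 0.0165 RPKM in either group.

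Genes with the most similar pattern were sought over the 6 libraries, by the root mean square difference of log2 CPM after centring each gene on its Control mean. For Ndrg1 they were Ero1l (0.0985), Ankrd1 (0.112) and the neuronal enolase Eno2 (0.137), among 6193 genes compared. For Ankrd37 they were Ccng2 (0.135), Atxn1 (0.145) and Crebrf (0.156). The 6 points of each gene share their libraries and fall into 2 groups, and no test was made of this likeness.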

How the data were processed

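RNA was sequenced from 3 Control and 3 H6R2 AML12 libraries. Per the labels, reads were trimmed with Trimmomatic 0.36, mapped to GRCm38 and counted per gene with featureCounts of Subread 1.5.1, and edgeR 3.12.1 was used. The deposited tables hold the authors' raw counts and their RPKM for each library. The library kit was stranded. Whether counting used strand is not given in the sources used here. RPKM recomputed from the deposited counts, gene lengths and totals matched the authors' RPKM within a relative difference of 1.13e-06. RPKM were used for levels, ranks and family shares in each group, and in the limma alternatives. They are scaled by library totals and not by TMM.

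Counts were tested with edgeR 4.0.16 in R 4.3.3 (glmQLFit and glmQLFTest) after the default count filter and TMM scaling, which left 14020 of 25330 genes. Library totals were 20438746 to 21854790, and the biological coefficient of variation was 0.0502. A gene was called at an adjusted p (Benjamini-Hochberg) of 0.05 and a 2-fold change. The code was tested on simulated data. Alternatives used DESeq2 1.42.0, limma 3.58.1 on log2(RPKM + 1) and log2(RPKM + 0.1), other scalings, filters and fold thresholds, a replicate block, and each library left out. Intervals on summed counts cover counting error only. Gene positions came from the exon coordinates deposited with the counts, and 24 symbols converted to dates were not used by name.

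The 9 genes and the gene lists were chosen with earlier results of these data known. Named list genes were the up to 6 of each list with the largest changes among those called or with a mean of at least 100 counts. Car3, Car14, Car15, Rorb, Ndrg3, Stc2, Tfrc, Pfkfb4, Ddit4, Angptl4, Clock, Nr1d1, the marker genes, the genes overlapping Ndrg1, Ankrd37 and Car9, and the genes near Car6 were named outside this rule, after their values were seen. The values of 1 paralog are not reported here.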

Additional observations from a re-analysis of the deposited data

How the results depend on the processing

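Ndrg1 and Ankrd37 were called under all 19 alternatives, and Car13 joined them when no fold threshold was used. Over the alternatives the log2 fold change of Ndrg1 was 3.10 to 3.28, of Ankrd37 1.94 to 2.80, of Car13 0.32 to 0.56 and of Car2 -0.33 to -0.08. Car9 was -0.35 to 0.05 and Slc4a7 -0.11 to 0.05, the lowest with library totals, and both changed sign without passing the test. With 1 library left out, Car9 had the same range, with 0.00499 without Control replicate 2 and 0.0463 without H6R2 replicate 2. Leaving out 1 library gave -0.0437 to 0.0474 for Slc4a7, with 0.0228 without Control replicate 3 and 0.0474 without H6R2 replicate 3, and DESeq2 gave 0.0139.

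Of all tested genes, 1195 were called, 596 higher and 599 lower. The split was 516 to 734 with upper quartile scaling and 476 to 810 with library totals, and the median over all genes went from -0.01 to -0.08 and -0.12 (log2). The number called was 406 with limma on log2(RPKM + 1), 474 with glmTreat, 3420 at 1.5-fold, 162 at 4-fold and 8806 with no fold threshold. Carbonic anhydrases (1 called) gave 2 with no count filter, 0 with at least 10 counts in every library, 1 to 2 with 1 library left out and 3 with no fold threshold. The second gene was Car15, called without Control replicate 1, Control replicate 2 or H6R2 replicate 2. Acid-base genes (3 called) gave 1 with library totals, 0 with glmTreat, at 4-fold and with limma on either scale, 6 at 1.5-fold and 9 with no fold threshold. The other hypoxia markers (22 called) gave 6 at 4-fold. The paralogs (2 called) gave 1 with library totals, with at least 10 counts in every library and with limma on log2(RPKM + 0.1), 0 with limma on log2(RPKM + 1), with glmTreat and at 4-fold, 4 at 1.5-fold and 5 with no fold threshold. The clock genes (2 called) gave 1 with limma on log2(RPKM + 1), 0 at 4-fold, and 4 at 1.5-fold and with no fold threshold. The cause of these shifts was not tested.

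Replicate numbers did not pair the samples, with correlations of -0.0301, 0.00936 and -0.0201 between the deviations of same-numbered libraries. A replicate block in the fit gave 1200 called genes in all, and 2 among the 9. Depth limits Car12, Stc1 and Rora, which could not be tested, and Car2 and Car9, whose intervals are wide.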

Other observations

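On chr4, 3 genes near Car6 were looked at after its values had been seen, and whether other genes lie closer was not examined. Slc2a5, the fructose transporter GLUT5, ends 42845 bases before Car6 on chr4 and fell from 26.0 ± 4.43 to 10.2 ± 2.69 scaled counts (SD, n = 3 each), a log2 fold change of -1.35 with an adjusted p of 5.84e-04 by edgeR's quasi-likelihood test. Eno1, a glycolytic enolase and one of the hypoxia markers, starts 35388 bases after Car6 and rose from 20015 ± 403 to 26070 ± 581, a log2 fold change of 0.38 with an adjusted p of 3.75e-09 by the same test. Gpr157 had a log2 fold change of -0.06 and did not pass. The 3 genes thus differed in direction, and none changed by as much as Car6.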
